A study of Mus musculus with 25 samples.

Results

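The muscle ankyrin repeat stress genes are 6 genes whose products sit in the stretch-sensing machinery of the sarcomere: Ankrd1, Ankrd2, Ankrd23, Csrp3, Xirp1 and Xirp2. They were chosen by name, with earlier results of these data known, and located in the RefSeq annotation of mm10. They are 6 of 21000 protein-coding genes with a curated transcript. For each gene, the Spin1 and H3K4me3 peaks at the promoter (TSS±1 kb of every curated transcript), in the rest of the gene body and within 50 kb on each side were collected. The study examined loss of the histone code reader Spin1 in skeletal muscle (SkM) and deposited 25 samples, of which 22 are RNA-seq libraries that were not analysed here. The other samples are chromatin of wild-type primary myoblasts from limb muscle of 10-day-old C57BL/6 mice, given in the methods as C57BL/6 N. The cells were obtained by preplating and grown to about 70% confluency. They gave 1 library with an antibody against Spin1, 1 with an antibody against H3K4me3 and 1 of input DNA. The chromatin is that of cells in culture, labelled as myoblasts, and the number of animals behind it is not given in the sources used here. The antibody field of the H3K4me3 library reads H3K4me, while its title and the paper's methods give H3K4me3.

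Ankrd1, Ankrd2 and Ankrd23 encode the muscle ankyrin repeat proteins (MARPs), which bind the elastic part of titin in the I-band and move to the nucleus when muscle is stretched or injured. Csrp3 encodes muscle LIM protein (MLP), a Z-disc adaptor that also acts as a coactivator of myogenic transcription factors in the nucleus. Xirp1 and Xirp2 encode the Xin repeat proteins, which bundle actin filaments at myotendinous junctions and at sites of myofibril damage and repair. Spin1 binds H3K4me3, a mark found at active and poised promoters, through its Tudor-like domains.

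Peaks carry the score of the peak caller MACS, which grows with the negative log10 of the p-value of enrichment over input. The Spin1 list holds 17106 peaks with scores from 50.66 to 3233, and the H3K4me3 list holds 30763 peaks with scores from 50.03 to 3228. Many peaks stop at 3100: among peaks at promoters of protein-coding genes, 3100 or more was reached by 44.7% of 11402 in the Spin1 list and by 86.2% of 13864 in the H3K4me3 list. Scores of the 2 lists were not compared with each other. With 1 library per antibody, no value has a replicate error, read depth is unknown and no test was made.

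The label of the cells was compared with promoter marks of cell type markers. All 7 myoblast markers (Myod1, Myf5, Pax7, Des, Cdh15, Itga7 and Vcam1) had both peaks. Of all protein-coding genes, 68.0% had H3K4me3 at the promoter, 56.7% had both peaks, 11.3% H3K4me3 alone and 32.0% neither. Of 7 genes of differentiated fibers, 3 (Acta1, Mb and Pygm) had both peaks, Ckm and Myh1 had H3K4me3 alone, and Myh2 and Myh4 had neither. Among fibroblast markers, all 6 had H3K4me3, and Pdgfra, Col1a1 and Col3a1 also had Spin1, while Dcn (H3K4me3 score 3100), Thy1 (2065) and Tcf21 (70.84) did not. No Spin1 peak lay at any of 5 endothelial, 5 leukocyte, 3 adipocyte or 4 cardiomyocyte genes. Of these, Kdr (score 3100), Cdh5 (score 246), Nkx2-5 (score 413) and Cd68 (score 51.78) carried H3K4me3. A preplated culture can hold fibroblasts, and the part of other cells in the peaks of the stress genes was not tested.

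Spin1 occupied the promoters of 2 of 6 members, Ankrd1 and Xirp1, beside 56.7% of all protein-coding genes. H3K4me3 was present at 5 of 6 promoters, with Ankrd2 the exception, beside 68.0% of all protein-coding genes. With a minimum score of 100 it was 3 of 6 (without Ankrd23 and Xirp2), beside 67.3%, and with the 50% highest-scoring peaks 2 of 6 (Ankrd1 and Xirp1), beside 63.0%, so the count lay below the share of all genes at both settings. Both peaks were found at Ankrd1 and Xirp1 (2 of 6, beside 56.7%), and H3K4me3 without Spin1 at Ankrd23, Csrp3 and Xirp2 (3 of 6, beside 11.3%). Ankrd2 had neither, as did 32.0% of protein-coding genes. With a minimum score of 100, Csrp3 alone had H3K4me3 without Spin1, and with the 50% highest-scoring peaks no member had it. The 2 Spin1 peaks and the H3K4me3 peaks over them reach far into the genes. Their centers lie beyond 1 kb, and if the center had to fall within TSS±1 kb, 0 members had Spin1, beside 52.7% of protein-coding genes by that rule, and 3 had H3K4me3 (Ankrd23, Csrp3 and Xirp2), beside 56.3%.

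**Figure D1:**
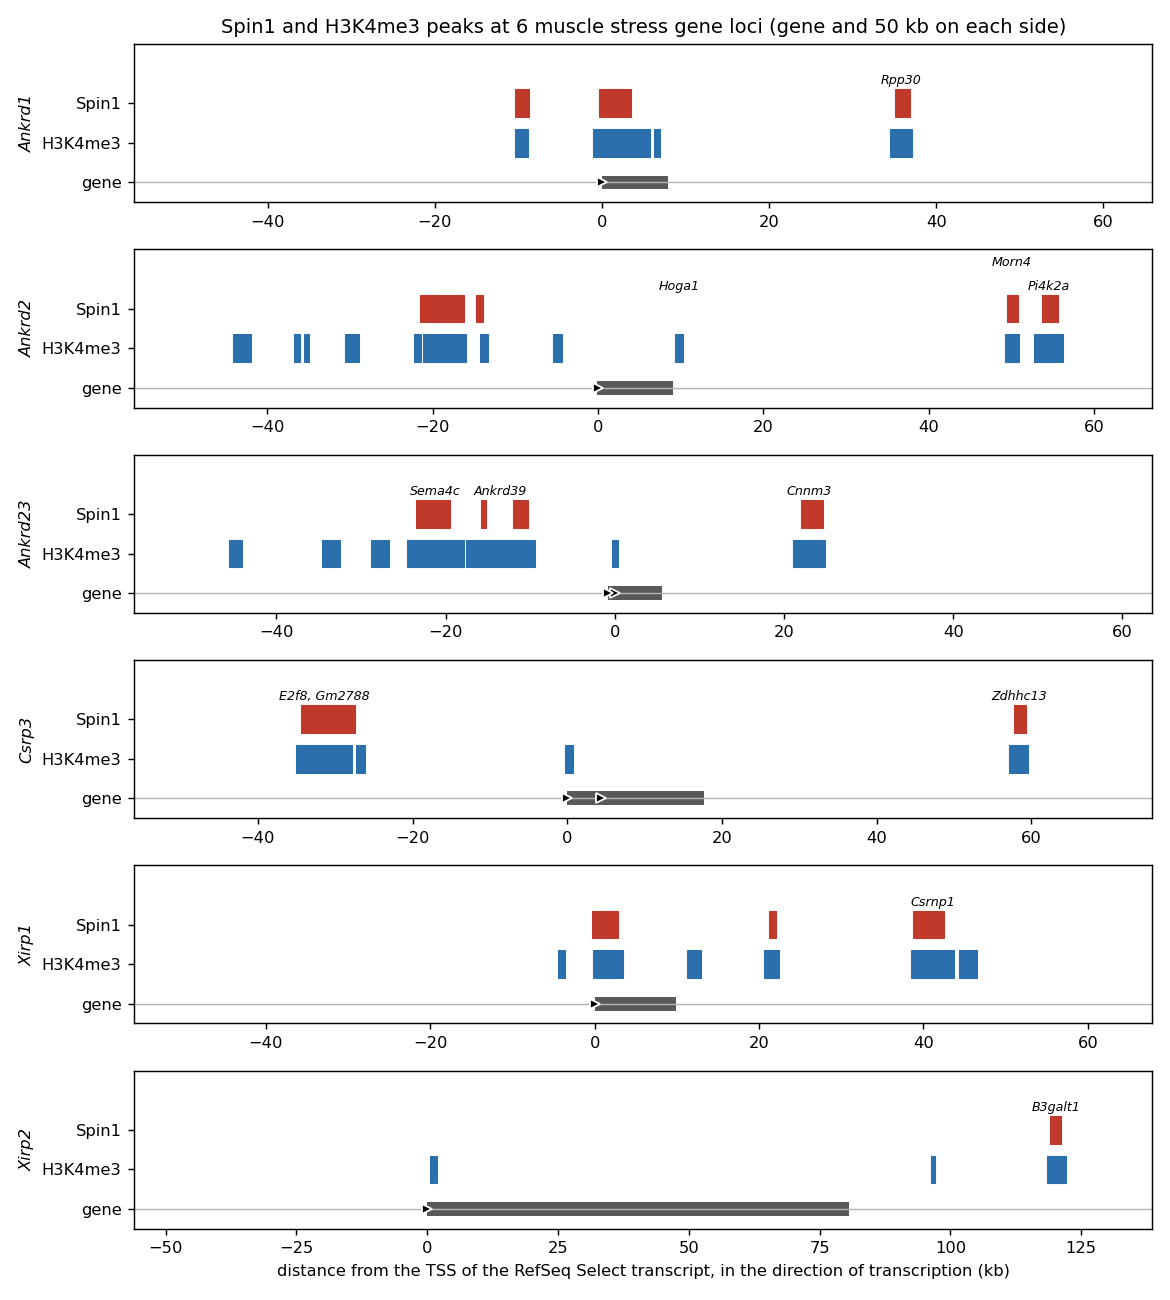
Spin1 (red) and H3K4me3 (blue) peaks at the 6 loci, plotted as distance in kb from the TSS of the RefSeq Select transcript in the direction of transcription; gray bars are the genes, arrowheads their curated TSSs, and names above the peaks are other genes whose promoter an H3K4me3 peak overlaps. Spin1 peaks lie on the TSSs of Ankrd1 and Xirp1, and at the other 4 genes the nearest Spin1 peak lies in the flanks.

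Ankrd1, also called CARP, is a MARP induced by injury and stretch. The gene (GeneID 107765) lies at chr19:36111965-36119844 on the minus strand, has 9 exons in its Select transcript and measures 7880 bp. Its Spin1 peak at chr19:36116370-36120237 scored 3100, ran from -393 to 3474 bp relative to the TSS and covered exons 1 to 5. This peak is 3868 bp wide, wider than 90.3% of the widest Spin1 peaks at occupied promoters. The H3K4me3 peak at chr19:36114057-36120867 also scored 3100, ran from -1023 to 5787 bp, covered exons 1 to 8 and took in 73.5% of the gene. At 6811 bp it is wider than 94.7% of the widest H3K4me3 peaks of marked promoters, and it contains the whole Spin1 peak. A weak H3K4me3 peak at chr19:36112914-36113636 (score 63.14) lies between exons further into the gene. Ankrd1 thus had the broadest mark among the members.

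Upstream of Ankrd1 lies a pair of peaks that overlap no promoter of any other gene, curated or predicted, and that no annotated gene covers. The Spin1 peak at chr19:36128580-36130253 (score 489.6, width 1674 bp) begins 8736 bp upstream of the TSS, and the H3K4me3 peak at chr19:36128721-36130250 (score 462) lies entirely within it. Of all 5309 Spin1 peaks outside curated promoter windows, 72.6% overlap H3K4me3. These 5309, of 17106 in the list, have a median score of 145 and a median width of 768 bp. The peak upstream of Ankrd1 scored above 84.0% of them and is wider than 89.6%. The other flank peaks of Ankrd1 are those at the promoter of Rpp30, a subunit of RNase P, which carried Spin1 (score 1435) and H3K4me3 (score 3100).

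Xirp1 (GeneID 22437, chr9:120013755-120023598, minus strand, 3 exons) was the other occupied gene. Its Spin1 peak at chr9:120020780-120023934 (score 1743, width 3155 bp) ran from -336 to 2818 bp and overlapped exon 1 and the intron after it. The score is higher than in 32.3% of Spin1-occupied genes, so it is a below-median score at an above-median width (wider than 78.7%). The H3K4me3 peak at chr9:120020133-120023772 (score 3100, width 3640 bp) ran from -174 to 3465 bp and covered 35.2% of the gene. H3K4me3 peaks also lay 3554 bp upstream of the TSS (score 303) and, past the 3′ end of the gene, at chr9:120010622-120012376 (score 2643), neither with Spin1. A further Spin1 peak at chr9:120001489-120002440 (score 206) lay inside an H3K4me3 peak (score 1689.7) within the span of the predicted noncoding gene Gm33800. The H3K4me3 peak scoring 2643 also overlapped Gm33800. Spin1 and H3K4me3 (both 3100) covered the promoter of Csrnp1, a nuclear protein of the cysteine-serine-rich family, further past the 3′ end of Xirp1. These peaks also overlapped the predicted promoter of Gm33800. Beyond them, an H3K4me3 peak at chr9:119977087-119979261 (score 744) lay at a predicted Csrnp1 promoter without Spin1. The leukocyte gene Cx3cr1, a neighbor on the other side, had neither peak at its promoter.

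Csrp3 (GeneID 13009, chr7:48830398-48848051, minus strand, 6 exons) had an H3K4me3 peak of low score and no Spin1 peak at the promoter. The peak at chr7:48847284-48848392 scored 311, measured 1109 bp and ran from -341 to 767 bp over exon 1 of the Select transcript. Its score exceeds that of 2.95% of H3K4me3-marked genes and its width that of 3.52%. The other curated TSS of the gene, 4380 bp further in, had no peak within 1 kb. The nearest Spin1 peak begins 27461 bp upstream of the outer TSS (score 128) and adjoins a Spin1 peak of 6205 bp (score 3100) over the promoters of E2f8, a repressive E2F factor of the cell cycle, of the noncoding gene Gm2788 and of the predicted noncoding gene LOC115486422. On the other side, the promoter of Zdhhc13, which encodes a palmitoyltransferase, carried both peaks at 3100.

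Ankrd23 (GeneID 78321, chr1:36530193-36536556, minus strand, 9 exons), also called DARP, has 2 curated TSSs 817 bp apart. A weak H3K4me3 peak of 637 bp at chr1:36535394-36536030 (score 62.65) lay over the TSS of the Select transcript, and no Spin1 peak lay within 1 kb of either TSS. Only 0.399% of H3K4me3-marked genes had a lower score. Spin1 was found on both sides at neighbors: at Ankrd39 (score 1925), Sema4c (score 3100) and Cnnm3 (score 3100), which encode another ankyrin repeat protein, a semaphorin and a divalent metal cation transport mediator. The H3K4me3 peak at Ankrd39 measured 8170 bp and that at Sema4c 6741 bp. The edge of the broad mark at Ankrd39 came to 9446 bp from the Select TSS of Ankrd23.

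Xirp2 (GeneID 241431, chr2:67446000-67526620, plus strand) is the longest of the 6 genes at 80621 bp. It had 2 weak H3K4me3 peaks downstream of the TSS, at chr2:67446533-67447080 (score 63.24, 548 bp) and chr2:67447260-67447910 (score 72.47, 651 bp), neither overlapping an exon of the Select transcript. The nearest edge of the peak counted at the promoter lay 531 bp from the TSS, so with TSS±0.5 kb Xirp2 was not marked and 4 of 6 members had H3K4me3, beside 67.5% of protein-coding genes. The nearest Spin1 peak, at the promoter of B3galt1, which encodes a galactosyltransferase, was 119134 bp from the TSS (score 1422); 82.9% of protein-coding genes had a nearer one.

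Ankrd2 (GeneID 56642, chr19:42035917-42045111, plus strand, 9 exons), the MARP of slow fibers, had no peak of either list at its promoter or in its body, although its flanks held the most peaks, 5 of Spin1 and 12 of H3K4me3. The nearest H3K4me3 peak lay 4332 bp upstream of the TSS (score 294) within Ubtd1. A domain further upstream in Ubtd1, a ubiquitin domain gene, held an H3K4me3 peak of 5207 bp at chr19:42014891-42020097 (score 3100) and Spin1 peaks scoring 422 and 1759, the latter at the promoter of a predicted Ubtd1 transcript. A further Spin1 peak there (score 226) had its nearest edge 13849 bp from the Ankrd2 TSS. Past the 3′ end of Ankrd2, the promoter of Hoga1, a mitochondrial aldolase of hydroxyproline breakdown, had H3K4me3 (score 1111) without Spin1. Morn4 and Pi4k2a, a MORN repeat protein and a phosphatidylinositol kinase, had both peaks at the flank's end, with Spin1 scores of 722 and 3100.

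Counted over the 6 loci, Spin1 had 19 peaks, 2 at promoters, 0 in the rest of the gene bodies and 17 in the flanks. H3K4me3 had 39 peaks, 5 at promoters, 2 in gene bodies (Ankrd1 and Xirp2) and 32 in the flanks. The peaks in gene bodies score under 100, so a minimum score of 100 left 0 there. The totals fell to 12 for Spin1 and 15 for H3K4me3 with the 50% highest-scoring peaks of each list, and to 11 and 20 with flanks of 25 kb. In all protein-coding genes, 11.9% had a Spin1 peak and 25.5% an H3K4me3 peak in the rest of the body. Every member had peaks of both lists in its flanks, as had 62.5% of protein-coding genes for Spin1 and 74.7% for H3K4me3. With flanks of 25 kb, 4 members had Spin1 there and 5 had H3K4me3. The shares of all protein-coding genes for flanks of 25 kb were not counted, so these counts have no like comparison. Of the 17 Spin1 flank peaks, 10 overlapped a curated promoter of another gene and 7 did not. All 19 Spin1 peaks overlapped an H3K4me3 peak, where 91.3% of the whole Spin1 list did. In turn 17 of the 39 H3K4me3 peaks overlapped Spin1, beside 46.5% of the H3K4me3 list.

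Both members with Spin1 had an H3K4me3 score of 3100, and the members without it had lower scores or none. Among protein-coding genes with a highest H3K4me3 score under 100, as at Ankrd23 and Xirp2, 1.94% of 155 were occupied by Spin1. From 100 to under 1000, the range of Csrp3, 5.84% of 685 had one. From 1000 to under 3100, a range without a member, the share was 17.8% of 630. At 3100 or more, where Ankrd1 and Xirp1 fall, it was 91.7% of 12811. These ranges were chosen after the values were seen.

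**Figure D2:**
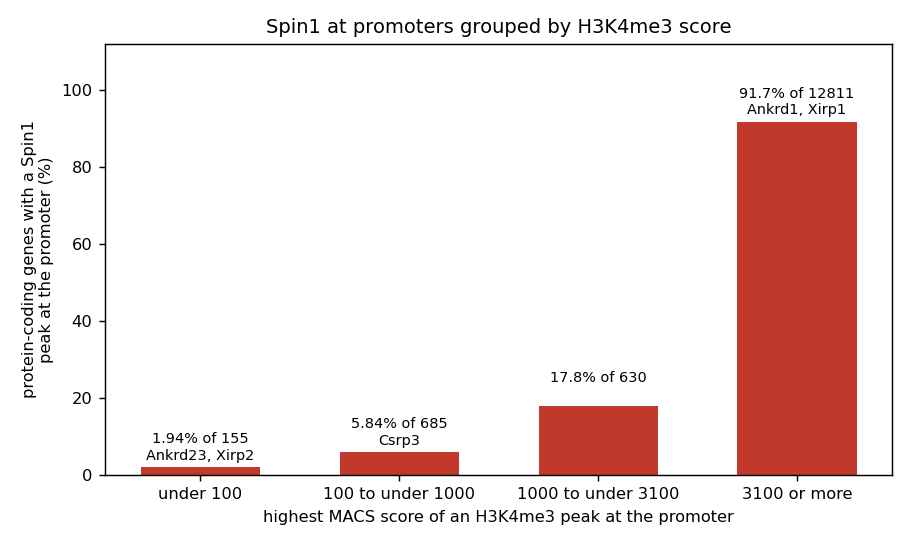
Share of protein-coding genes occupied by Spin1 at TSS±1 kb (%), in 4 ranges of the highest H3K4me3 score at that promoter; the number of genes and the members in each range stand above the bars. The share is 1.94% in the lowest range, which holds Ankrd23 and Xirp2, and 91.7% in the highest, which holds Ankrd1 and Xirp1.

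**Figure D3:**
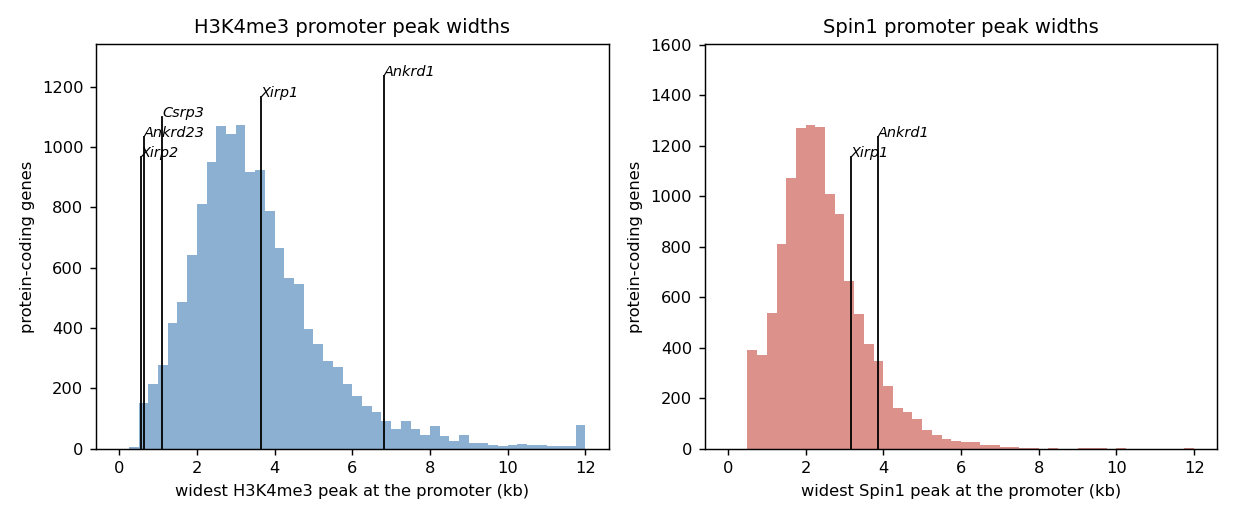
Number of protein-coding genes by the width in kb of the widest H3K4me3 peak (left) and Spin1 peak (right) at the promoter, in bins of 250 bp, with wider peaks gathered in the last bin; lines mark the members. For H3K4me3, Ankrd23, Csrp3 and Xirp2 lie at the narrow end (637, 1109 and 548 bp) and Ankrd1 in the broad tail (6811 bp).

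The promoter sequences were described by their CpG content and by short motifs. The RefSeq promoter table of GRCm38.p6, the same assembly as mm10, gives 250 bases before and 50 after each TSS, and 7 promoters of 5 members were matched in it (Ankrd1, Ankrd2, Ankrd23, Csrp3 and Xirp2, not Xirp1). The 250 bases upstream of 1 TSS per gene are printed 5′ to 3′ on the sense strand, so that the occupied promoter of Ankrd1 can be set beside the others. Capitals mark E-boxes (CANNTG), bound by myogenic bHLH factors such as Myod1, MCAT elements (CATTCC on either strand), bound by TEAD factors, and TATAAA. The positions are chr19:36119845-36120094 (minus strand) for Ankrd1, chr19:42035777-42036026 (plus) for Ankrd2, chr1:36535740-36535989 (minus) for Ankrd23, chr7:48848052-48848301 (minus) for Csrp3 and chr2:67445752-67446001 (plus) for Xirp2.
Ankrd1: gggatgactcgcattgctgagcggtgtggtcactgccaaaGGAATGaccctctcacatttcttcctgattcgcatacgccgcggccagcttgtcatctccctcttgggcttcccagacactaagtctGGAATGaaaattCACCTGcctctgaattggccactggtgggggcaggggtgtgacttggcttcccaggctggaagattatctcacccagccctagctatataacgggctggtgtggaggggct
Ankrd2: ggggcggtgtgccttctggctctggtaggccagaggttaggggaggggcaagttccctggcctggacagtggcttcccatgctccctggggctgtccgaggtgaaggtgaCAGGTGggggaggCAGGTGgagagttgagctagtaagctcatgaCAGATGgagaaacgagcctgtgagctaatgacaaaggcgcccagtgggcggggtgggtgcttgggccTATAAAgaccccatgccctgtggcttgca
Ankrd23: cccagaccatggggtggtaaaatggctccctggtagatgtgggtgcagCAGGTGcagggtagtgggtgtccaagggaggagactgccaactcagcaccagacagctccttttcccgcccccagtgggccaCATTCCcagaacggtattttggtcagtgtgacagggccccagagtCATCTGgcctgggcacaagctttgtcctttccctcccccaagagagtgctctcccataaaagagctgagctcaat
Csrp3: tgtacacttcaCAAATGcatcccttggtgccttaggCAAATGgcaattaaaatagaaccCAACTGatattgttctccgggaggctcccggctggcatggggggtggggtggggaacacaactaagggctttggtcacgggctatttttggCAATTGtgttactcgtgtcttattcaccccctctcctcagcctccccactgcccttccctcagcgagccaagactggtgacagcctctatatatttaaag
Xirp2: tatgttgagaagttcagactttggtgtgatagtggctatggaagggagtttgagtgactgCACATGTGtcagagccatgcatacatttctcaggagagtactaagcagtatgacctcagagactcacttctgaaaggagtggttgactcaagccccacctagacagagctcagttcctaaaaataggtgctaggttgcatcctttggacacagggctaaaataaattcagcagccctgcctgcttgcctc

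The 7 member promoters had lower CpG content than the median protein-coding promoter. Their CpG observed/expected ratios ran from 0.0577 (Xirp2) to 0.356 (the outer TSS of Ankrd23), with 0.312 for Ankrd1 and 0.269 for Ankrd2, against a median of 0.588 over 20488 promoters of protein-coding genes. Over all 32851 promoters of the table, noncoding genes included, the median was 0.384, and the members lay between percentiles 7.10 (Xirp2) and 47.5 (the outer TSS of Ankrd23), with Ankrd1 at 43.2. Among 9017 promoters of protein-coding genes with a ratio under 0.5, 16.9% had a Spin1 peak and 29.2% an H3K4me3 peak within 1 kb of the TSS. Among the 11471 other protein-coding promoters the shares were 86.1% and 96.7%. The limit of 0.5 was chosen after the values were seen. Ankrd1 was the only promoter of the 7 with Spin1.

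**Figure D4:**
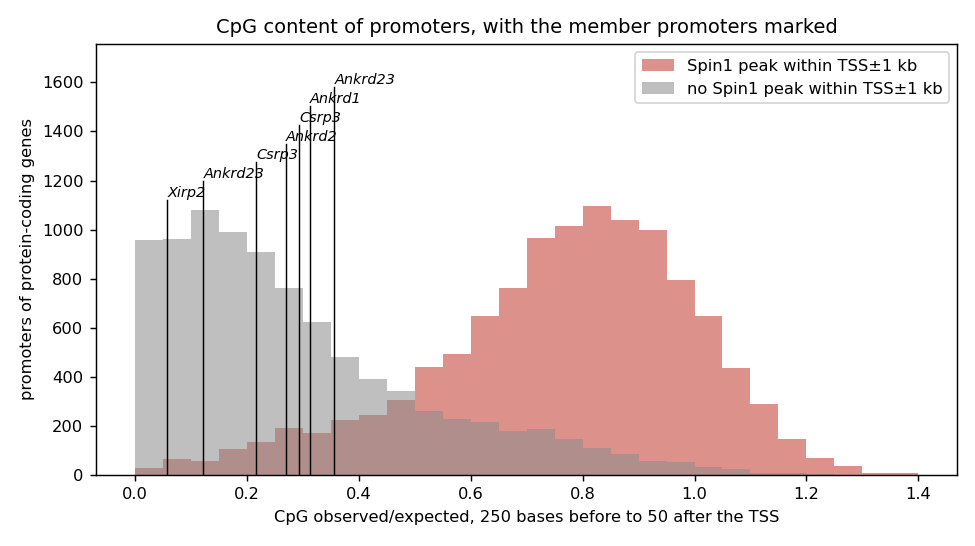
Number of promoters of protein-coding genes by CpG observed/expected ratio, separately for those with (red) and without (gray) a Spin1 peak within TSS±1 kb; black lines mark the 7 promoters of 5 members. All 7 lie at or below 0.356, where promoters without Spin1 are more frequent.

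Motifs were counted in the whole 300 bases on both strands; CAGCTG and CACCTG are also E-boxes. The Ankrd1 promoter has MCAT elements that begin 210 and 123 bases before the TSS, and an E-box of the form CACCTG at 111 bases, close to the nearer MCAT. Ankrd23 has an MCAT element 120 bases upstream of its Select TSS, with 2 E-boxes, 1 of them CACCTG, and another MCAT element 36 bases past its outer TSS, where no E-box was found. MCAT elements occur in 14.7% of all 32851 promoters of the table. The Ankrd2 promoter has 3 E-boxes, 2 of them CACCTG on the antisense strand, and TATAAA at 29 bases before the TSS. Only the exact letters TATAAA were searched. Related strings, such as tatataa in the printed Ankrd1 bases, were not marked or counted. Csrp3 has 5 E-boxes at its Select TSS, none of them CACCTG, and 4 at the inner TSS, 2 of them CACCTG. The E-box occurs in 72.3% of all promoters, CACCTG in 20.2%, CAGCTG (in no member promoter) in 16.3% and TATAAA in 13.6%. Xirp2 has 2 E-boxes that overlap each other within CACATGTG, and a MEF2 element 74 bases before the TSS. The MEF2 match was found in 3.19% of promoters, and the CArG box, found in 1.63%, was in no member promoter. These matches describe letters in the window only.

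The center of the Spin1 peak upstream of Ankrd1 is printed in the same way, since this is the 1 Spin1 peak of the 6 loci that overlaps no annotated gene. It is chr19:36129267-36129566 of GRCm38.p6, plus strand, with the same capitals.
Ankrd1 upstream peak: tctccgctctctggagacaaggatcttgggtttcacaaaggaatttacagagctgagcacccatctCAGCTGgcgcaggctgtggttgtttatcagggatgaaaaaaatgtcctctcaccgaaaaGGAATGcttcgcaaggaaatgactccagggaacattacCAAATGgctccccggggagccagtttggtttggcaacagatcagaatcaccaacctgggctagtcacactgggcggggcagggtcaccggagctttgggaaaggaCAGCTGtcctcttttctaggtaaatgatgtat
These 300 bases hold 3 E-boxes, 2 of them CAGCTG, and an MCAT element on the other strand from the one printed. Among the centers of the 5309 Spin1 peaks outside promoters, 75.2% hold an E-box, 20.4% CAGCTG and 17.3% an MCAT element.

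Other genes of the titin, Z-disc and Xin systems, together with LIM paralogues, muscle RING finger genes and upstream regulators, were counted by the same rule. Of 46 such genes, 36 had Spin1 at the promoter (78.3%, beside 56.7% of protein-coding genes), 42 had H3K4me3 (91.3%, beside 68.0%) and 36 had both. With the peak center required within TSS±1 kb this order turned round: 22 had Spin1 (47.8%, beside 52.7%), 16 had H3K4me3 (34.8%, beside 56.3%) and 9 had both (19.6%, beside 45.2%). All 3 muscle RING finger genes, Trim63, Trim54 and Trim55, which encode ubiquitin ligases, had both peaks, as did Csrp1 and Csrp2, the LIM paralogues of Csrp3 outside striated muscle. Of 10 upstream regulators, among them Yap1, Tead1, Srf and Mef2d, 9 had both peaks, and Myocd, the coactivator of Srf in heart and smooth muscle, had H3K4me3 alone. In the group of titin and its binders, 7 of 9 had both peaks, including Ttn itself with a score of 3100. Among Z-disc genes 8 of 13 had both (61.5%, beside 56.7% of protein-coding genes), and among Xin partners 7 of 9 (77.8%). The groups are small and differ in this share, and the list was not split by breadth of expression.

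H3K4me3 alone was found at Capn3, the titin-anchored protease (score 187), Tcap, the titin cap protein (score 671), Myoz2, a calcineurin-binding Z-disc protein (score 84.58), Nrap, an actin anchor of forming myofibrils (score 2703), and at Fhl1, a LIM protein that binds titin, and Myocd (both 3100). Neither peak was found at Myot, Myoz1, Myoz3 and Neb, the last of which encodes the thin filament protein nebulin. Among the occupied genes the lowest Spin1 score was that of Mypn, a binding partner of Ankrd1 in the I-band, at 163. The highest, 3100, was shared by 20 genes: Ttn, Des, Ybx1, Cryab, Actn3, Pdlim3, Pdlim7, Nexn, Flnc, Vasp, Enah, Ctnnb1, Csrp1, Trim55, Yap1, Wwtr1, Tead1, Mef2a, Mef2d and Srf.

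**Figure D5:**
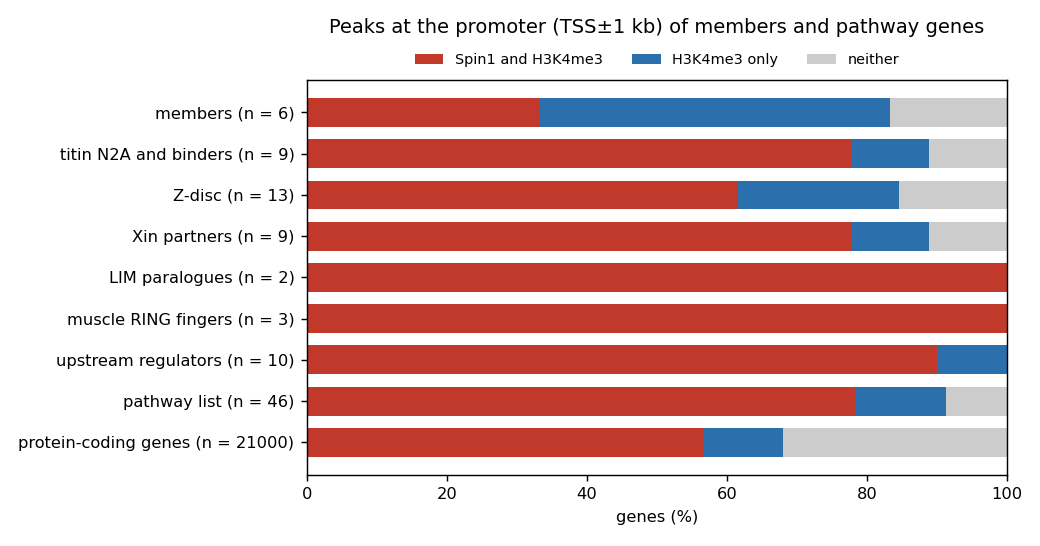
Share of genes (%) with both peaks (red), H3K4me3 alone (blue) or neither (gray) at the promoter, for the 6 members, 6 groups of pathway genes, the whole pathway list and all protein-coding genes, with n beside each name. Both peaks are present at 2 of 6 members, 36 of 46 pathway genes and 56.7% of protein-coding genes.

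Each member was also described by 6 yes or no states, Spin1 and H3K4me3 at the promoter, in the rest of the body and in the rest of the flanks. Xirp1 shared all 6 with 5814 other protein-coding genes (27.7% of them). It shared them with 8 of the 46 genes of the pathway list (Ttn, Des, Actn2, Nexn, Flnc, Enah, Trim63 and Mef2a). Ankrd1 shared its states with 1735 genes (8.26%) and with 9 of the list (Mypn, Palld, Smyd1, Actn3, Pdlim7, Vasp, Trim54, Yap1 and Srf). Csrp3 and Ankrd23 had the same states as each other. Each shared them with 929 other genes (4.42%), including Capn3, Tcap and Myoz2 of the list. Ankrd2 shared its states with 1987 genes (9.46%), including Myot, Myoz1 and Myoz3. Xirp2 had the least common combination, found at 323 other genes (1.54%), including Fhl1 and Myocd. The share in the pathway list lay below that of all genes for Xirp1 and Ankrd2, and above it for the other members. This was not tested. The states that set Ankrd1 apart from Xirp1, and Xirp2 and Ankrd23 apart from Ankrd2, rest on H3K4me3 peaks that score under 100. With a minimum score of 100, Ankrd1 had the states of Xirp1, and Xirp2 and Ankrd23 had those of Ankrd2.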

How the data were processed

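Spin1 and H3K4me3 peaks of primary myoblasts were used as deposited; RNA-seq and input were not analysed here. Per the submitters' processing notes, the authors aligned reads to mm10 with Bowtie2 and called peaks with MACS 1.4.2. The deposited score of each peak is the MACS score, with no normalization between lists, and peaks were called on 1 library per antibody. Genes and TSSs came from RefSeq (GRCm38.p6, annotation release 108.20200622) with 45756 curated transcripts of 26182 genes. No peak ended past a chromosome end of this assembly. A peak was assigned to a region by an overlap of 1 bp. Bodies excluded peaks at the gene's own promoter, and flanks excluded both. Overlap counting was tested on simulated peaks. Python 3.11.15, pandas 2.3.3, NumPy 2.4.6 and pysam 0.24.0 were used. Named genes were all members, all genes whose promoter a flank peak overlaps, pathway genes without Spin1 or H3K4me3, those with the lowest or highest Spin1 score or with a member's states, and markers that go against the cell label. Csrp2, Ubtd1, Gm33800 and the other markers were named after their values were seen. 1 marker list is not reported here. Members and lists were chosen with earlier results of these data known.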

Additional observations from a re-analysis of the deposited data

How the results depend on the processing

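Of 79 counts recomputed under other settings, 62 were within 1.5 times the reported count. Requiring the peak center inside the region gave 0 members with Spin1 and 3 with H3K4me3 at the promoter, 0 with both, and 2 with Spin1 in the gene body, since the wide peaks of Ankrd1 and Xirp1 are centered beyond 1 kb; in the pathway list it gave 22 with Spin1, 16 with H3K4me3 and 9 with both, shares below those of all protein-coding genes (52.7, 56.3 and 45.2%). With a score of at least 100, 3 members had H3K4me3 at the promoter and 0 in the body. With the 50% highest-scoring peaks of each list, these were 2 and 0, and the loci held 12 Spin1 peaks, of which 12 overlapped H3K4me3, and 15 H3K4me3 peaks. With flanks of 25 kb they held 11 Spin1 peaks, 11 of them overlapping H3K4me3, and 20 H3K4me3 peaks. Shares of all protein-coding genes with peaks in the body or flanks were not counted under these other settings. Adding predicted transcripts, a setting chosen after seeing the data, left the counts for members at 2, 5 and 2. Over the window, transcript, score and overlap settings the share of protein-coding genes with Spin1 at the promoter ran from 42.9 to 57.6%, and with H3K4me3 from 56.3 to 69.0%. No paired analysis was possible because each antibody has 1 library and no result comes from a test. Absence of a peak means that the deposited list holds none, and read depth is unknown. Per the paper's methods, peaks above a limit on the false discovery rate were left out of its analyses. Protein lengths and identities were not analysed here.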

Other observations

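Apart from Ankrd1, Ankrd2 and Ankrd23, 44 protein-coding genes are named Ankrd and a number, most of them with no known role in the sarcomere; this set was chosen after the values were seen. Both peaks were present at the promoter of 29 of them (65.9%, beside 56.7% of protein-coding genes). H3K4me3 alone (11.3% of protein-coding genes) was present at 5, Ankrd34b, Ankrd35, Ankrd45, Ankrd53 and Ankrd60. Neither (32.0% of protein-coding genes) was present at 10, among them Ankrd7, Ankrd31, Ankrd33 and Ankrd55.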
